A study of Mus musculus with 2 samples.

Results

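Tail-low bins are 1-kb windows of the mouse genome that were highly methylated in sperm and less methylated in tail of the same animal. They were selected on the measured levels themselves. Methylated and unmethylated calls of all CpG positions on chromosomes 1 to 19 were summed per 1-kb bin, bins with at least 100 calls in both libraries were kept, and a bin was taken when its sperm level was above 0.8 and its tail level was lower by at least 0.1. The level is the methylated share of calls, from 0 to 1. Of 10802 kept bins, 8299 had a sperm level above 0.8 and 1144 met the whole rule, which is 10.6% of kept bins. They formed 1091 loci once bins that touched or shared an LTR were joined, and 52 of these loci held more than 1 bin. Since the rule used the difference between sperm and tail, that difference is given below as a description, without a test.

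Genomic DNA of sperm and of tail was taken from a single adult male C57BL/6J mouse and gave 1 library each, with no treatment and no genetic change named in the labels. Both were made by TEPBAT, in which bisulfite-treated DNA is copied from random primers and fragments that start in an LTR of the IAP retrotransposon are then amplified by PCR. There was no replicate of either tissue, tail DNA comes from a mixture of cell types, and an animal-to-animal difference cannot be seen with 1 mouse. On chromosomes 1 to 19 the sperm file held 92329351 calls at 727920 positions (87.9% methylated) and the tail file 53308830 calls at 930335 positions (88.4% methylated).

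IAP elements are endogenous retroviruses that still transpose in the laboratory mouse. Each full element is flanked by a 5′ LTR, which carries its promoter, and a 3′ LTR, and recombination between both leaves a solo LTR. IAP LTRs are silenced by DNA methylation and by zinc-finger proteins that recruit the corepressor TRIM28, and they keep much of their methylation through the erasure in germ cells and early embryos. A few copies are known to differ in methylation between genetically identical mice, and such copies can drive transcription into a neighbouring gene.

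Windows of 300 bases of LTRs in tail-low bins are printed to show the CpG sites behind the levels given below, each placed over the positions with the most calls in the named bin. They are mm10 sequences read in the direction of the LTR, 5′ to 3′, and capitals mark CpGs with a position that was lower in tail by at least 0.3 with at least 10 calls in each library. The first 4 windows are of solo IAPLTR2 copies, at chr2:161511657-161511956 (minus strand), chr4:115281076-115281375 (minus strand), chr9:103108806-103109105 (plus strand) and chr4:89875828-89876127 (plus strand). The capitals lie near the downstream end of the first 3, and near the upstream end of the other. In these 4 windows every position with at least 10 calls in each library is in capitals, for example 4 among 22 CpG sites near Chd6. Lower-case CpGs had no such position, so the place of the capitals follows where the calls fell.
IAPLTR2 solo, 402581 bases from Chd6: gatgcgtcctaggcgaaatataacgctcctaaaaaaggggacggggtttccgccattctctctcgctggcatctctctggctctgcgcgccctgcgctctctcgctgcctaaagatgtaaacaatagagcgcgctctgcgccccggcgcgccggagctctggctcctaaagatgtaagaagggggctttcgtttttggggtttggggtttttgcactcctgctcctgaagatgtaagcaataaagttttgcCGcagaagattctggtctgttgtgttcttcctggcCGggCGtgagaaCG
IAPLTR2 solo, 17514 bases from Cyp4a12a: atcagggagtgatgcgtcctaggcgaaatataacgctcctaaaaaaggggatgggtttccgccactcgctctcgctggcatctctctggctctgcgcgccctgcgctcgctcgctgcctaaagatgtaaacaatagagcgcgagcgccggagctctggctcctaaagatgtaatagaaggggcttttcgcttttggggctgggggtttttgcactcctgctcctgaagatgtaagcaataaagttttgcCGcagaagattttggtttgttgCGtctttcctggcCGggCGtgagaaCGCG
IAPLTR2 solo, 2675 bases from Rab6b: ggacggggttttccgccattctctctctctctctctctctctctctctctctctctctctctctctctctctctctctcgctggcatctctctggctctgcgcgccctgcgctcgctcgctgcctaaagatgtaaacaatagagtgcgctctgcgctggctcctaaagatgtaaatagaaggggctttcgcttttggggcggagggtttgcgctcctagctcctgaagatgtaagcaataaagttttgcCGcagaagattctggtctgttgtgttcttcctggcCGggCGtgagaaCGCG
IAPLTR2 solo, 196392 bases from Dmrta1: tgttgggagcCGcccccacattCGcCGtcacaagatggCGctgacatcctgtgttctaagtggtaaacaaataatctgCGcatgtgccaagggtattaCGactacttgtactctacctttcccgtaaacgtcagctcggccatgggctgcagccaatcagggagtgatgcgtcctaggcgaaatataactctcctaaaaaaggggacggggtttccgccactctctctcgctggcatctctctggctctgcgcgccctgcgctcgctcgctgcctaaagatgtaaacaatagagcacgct

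The other windows lie toward the 3′ end of 3′ LTRs and of a solo LTR of another subfamily, at chr5:64037993-64038292 (plus strand), chr6:28924185-28924484 (minus strand), chr15:77895214-77895513 (minus strand) and chr2:50800698-50800997 (minus strand). In all 4 the capitals gather near the downstream end. Positions with at least 10 calls in each library lay almost only there. Of 8 such positions in the window near Txn2, 6 are in capitals, and in the other windows all are. Most lower-case CpGs were thus not read at that depth.
IAPLTR2 3′ LTR, 54658 bases from Pgm2: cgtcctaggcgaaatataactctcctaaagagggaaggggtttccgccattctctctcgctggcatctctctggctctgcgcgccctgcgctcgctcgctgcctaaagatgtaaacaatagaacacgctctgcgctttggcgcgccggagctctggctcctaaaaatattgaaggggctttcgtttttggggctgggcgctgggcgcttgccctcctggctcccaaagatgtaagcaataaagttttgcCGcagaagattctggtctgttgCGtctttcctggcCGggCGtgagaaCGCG
IAPLTR1 3′ LTR, in Snd1: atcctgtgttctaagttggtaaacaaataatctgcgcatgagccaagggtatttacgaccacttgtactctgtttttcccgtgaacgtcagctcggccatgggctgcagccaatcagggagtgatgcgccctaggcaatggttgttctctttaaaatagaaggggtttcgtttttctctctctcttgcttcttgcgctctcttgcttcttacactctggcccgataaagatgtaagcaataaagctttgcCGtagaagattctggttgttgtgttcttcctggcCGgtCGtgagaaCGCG
IAPLTR1 3′ LTR, 33446 bases from Txn2: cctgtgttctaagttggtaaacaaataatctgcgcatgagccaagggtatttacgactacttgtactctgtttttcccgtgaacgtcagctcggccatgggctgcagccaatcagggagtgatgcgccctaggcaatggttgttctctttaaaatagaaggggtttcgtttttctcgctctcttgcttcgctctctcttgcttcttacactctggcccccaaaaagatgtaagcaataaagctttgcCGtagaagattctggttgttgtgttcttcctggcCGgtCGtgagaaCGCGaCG
IAPLTR2a2 solo, 348031 bases from Rnd3: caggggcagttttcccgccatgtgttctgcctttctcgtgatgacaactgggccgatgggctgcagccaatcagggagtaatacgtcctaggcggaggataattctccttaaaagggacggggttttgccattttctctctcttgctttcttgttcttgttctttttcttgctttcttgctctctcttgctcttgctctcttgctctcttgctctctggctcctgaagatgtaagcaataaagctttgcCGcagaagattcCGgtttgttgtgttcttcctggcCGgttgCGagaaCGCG

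The working name of these bins was candidate variably methylated IAPs, and it was compared with the positions of 13029 IAP LTR copies found in the genome. Only 405 of the 1144 tail-low bins (35.4%) held an LTR, against 79.1% of all kept bins. Another 137 (12%) had an LTR within 1 kb and are called adjacent bins. The other 602 (52.6%) had none within 1 kb and are called distant bins, and their median distance to the nearest LTR was 178111 bases. Distant bins made up 13.4% of all kept bins. At this call minimum most tail-low bins thus go against the working name. The share depended on the setting, since 61.8% of tail-low bins held an LTR with a minimum of 500 calls and 51.2% when the level was an unweighted mean over positions. Variation between animals was not measured by these libraries. The study compared several LTR loci between mice by bisulfite-PCR. It reported variation in tail at an IAPLTR2 locus and largely conserved levels at the others.

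Read per kind of bin, 4.74% of the 8542 kept bins with an LTR met the rule, 16.8% of the 816 adjacent bins and 41.7% of the 1444 distant bins. A mirrored rule was applied for comparison, with the tail level above 0.8 and the sperm level lower by at least 0.1. It took 1760 bins, or 16.3% of kept bins, made up of 17.5% of LTR bins, 22.3% of adjacent bins and 5.96% of distant bins. Among bins with an LTR the mirrored rule thus took more bins than the rule itself, and among distant bins it took fewer.

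**Figure D1:**
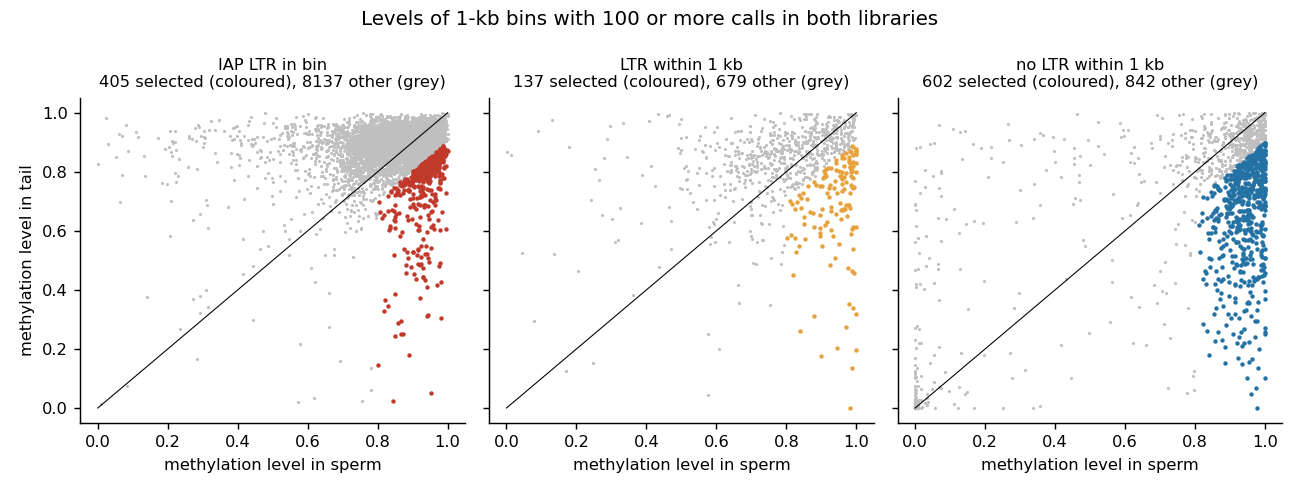
Methylation level in sperm (x axis) and tail (y axis) of every kept 1-kb bin, split by the presence of an IAP LTR, with tail-low bins coloured and the others grey and the line marking equal levels. The coloured bins number 405 with an LTR, 137 with an LTR within 1 kb and 602 without one, and tail levels at or under 0.5 were found in 35 of the first and 107 of the last.

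Over the 1144 tail-low bins the sperm level ran from 0.801 to 1 with a median of 0.945. The tail level ran from 0.000 to 0.898 with a median of 0.741. The median difference, tail minus sperm, was -0.189, and its quartiles were -0.311 and -0.130, whereas over all kept bins the median difference was 0.013. Most tail-low bins were thus still mostly methylated in tail. A tail level at or under 0.5 was found in 158 of them and one at or under 0.2 in 21, and 108 bins were lower by at least 0.5.

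Tail-low bins were read less deeply than the rest. They had a median of 526 calls in sperm and 414 in tail, against 2804 and 1706 over all kept bins, and the median number of positions read in both libraries was 5 against 10. Of the tail-low bins, 233 (20.4%) had fewer than 3 positions read in both libraries, against 5.72% of kept bins. The share of bins that met the rule was 26.5% (exact Clopper-Pearson 95% interval 24.2 to 28.8) where the shallower library had 100 to under 200 calls and 2.99% (2.36 to 3.72) at 5000 calls or more. Among bins with an LTR the same shares were 9.43% (7.08 to 12.2) and 2.88% (2.27 to 3.61). Among distant bins the share was 42.7% (39.0 to 46.6) at 100 to under 200 calls, 40.9% (30.5 to 51.9) from 1000 to under 2000 calls and 8.33% (1.03 to 27.0) in the 24 bins with 5000 or more. These intervals cover counting error over bins only, and bins that share an LTR or a locus are not independent. Intervals of single levels given below cover counting error over calls only. The PCR reads carry no molecular identifiers and are not independent molecules. With at least 500 calls in both libraries 448 tail-low bins remained, of which 61.8% held an LTR against 91.3% of the bins kept at that depth. At that depth 3.96% of LTR bins and 37.2% of distant bins met the rule.

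**Figure D2:**
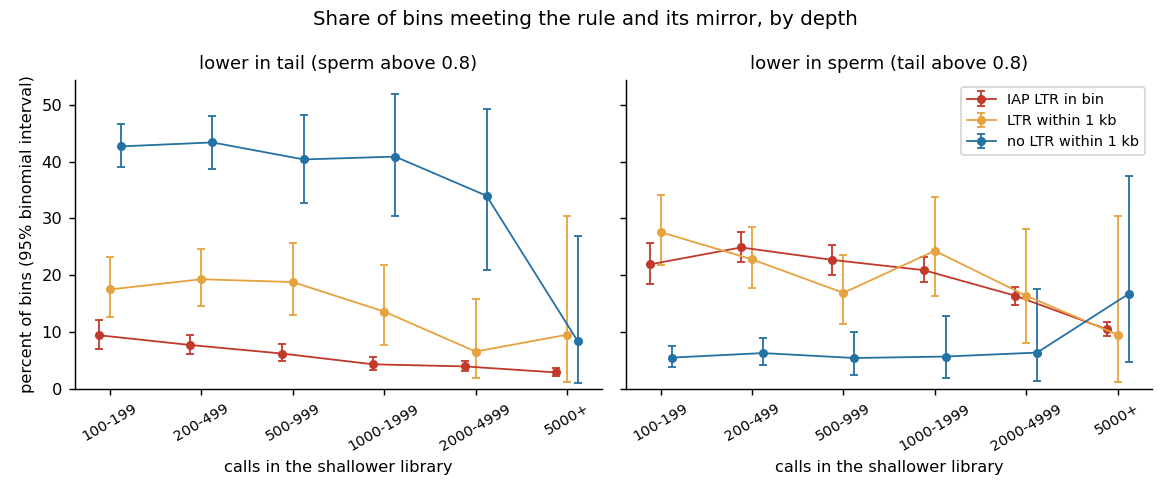
Percent of kept bins that met the rule (left) and the mirrored rule (right) against the number of calls in the shallower library, with exact 95% binomial intervals. On the left distant bins lie above LTR bins at each depth (42.7% against 9.43% at 100 to under 200 calls), and on the right they lie below them except at 5000 calls or more, where only 24 distant bins remain.

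At the limits of the rule the values were continuous. The 3 bins just inside the difference limit had differences of -0.1000, -0.1001 and -0.1002, and the 3 just outside had -0.0998, -0.0997 and -0.0997. The 3 bins with the lowest sperm level taken had sperm levels of 0.8006, 0.8009 and 0.8039. The 3 bins with a large enough difference that the sperm limit left out had sperm levels of 0.7994, 0.7983 and 0.7969. One of the latter had a tail level of 0.1240, and the Rab6b bin described below entered the set by a margin of the same small size. Without the sperm limit 1235 bins would have been taken.

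The 405 tail-low bins with an LTR touched 391 LTRs. Their median sperm level was 0.937 and their median tail level 0.782, with 64 bins lower by at least 0.3 and 35 at a tail level at or under 0.5. Solo LTRs alone were present in 205 of them (50.6%), against 29.0% of the other LTR bins. The rule took 8% of bins with solo LTRs, 4.23% of bins with a 3′ LTR and 2.48% of bins with a 5′ LTR. The mirrored rule took 12.8%, 14.2% and 24.0% of these. Among these 3 types, bins with a 5′ LTR were the most often lower in sperm and the least often lower in tail. In 96 further bins the LTR had internal sequence on both sides, and 4 of them were tail-low and 32 met the mirrored rule.

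Subfamilies contributed unequally. IAPLTR1 gave 95 tail-low bins of 1549 (6.13%), IAPLTR2a2 81 of 1344 (6.03%), IAPLTR2b 55 of 1052 (5.23%), IAPLTR2 79 of 1590 (4.97%), IAPLTR2a 25 of 655 (3.82%) and IAPLTR1a 43 of 1904 (2.26%). In IAPEY, where the mirrored rule took 45.7% of bins, 7 of 258 bins were tail-low. Bins lower by at least 0.3 numbered 64 among all 8542 LTR bins. They were 22 bins of IAPLTR1 (1.42% of its bins), 19 of IAPLTR2 (1.19%) and 10 of IAPLTR2a2 (0.744%). IAPLTR1a had 5 (0.263%), IAPLTR2a 2 (0.305%) and IAPLTR2b 2 (0.19%). In IAPLTR2 such bins came mostly from solo LTRs, with 14 of 654. In IAPLTR1 they came mostly from 3′ LTRs, with 16 of 713 against 6 of 762 bins with a 5′ LTR. The small subfamily IAPLTR4 had 7 tail-low bins of 39, 3 of them lower by at least 0.3 (7.69% of its bins). IAPEY3 had 6 of 51, 1 of them lower by at least 0.3 (1.96%).

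The lowest tail level among deeply read LTR bins was at a solo IAPLTR2 copy at chr2:161511656-161512123, 402581 bases from the start of Chd6, which encodes a chromatin remodelling enzyme. In sperm 12594 of 14944 calls were methylated (level 0.843, 95% interval 0.837 to 0.849), and in tail 117 of 4874 (0.024, 0.020 to 0.029). All 10 positions of the LTR with at least 10 calls in both libraries were lower in tail, 9 of them by at least 0.3. The downstream part of the LTR had 0.844 in sperm and 0.024 in tail, and the upstream part had 0.849 and 0.386 over 284 and 293 calls.

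A solo IAPLTR2 copy at chr4:115281069-115281532 lay 17514 bases from Cyp4a12a, a cytochrome P450 that hydroxylates fatty acids. Its bin had a level of 0.890 in sperm (0.887 to 0.892, 52747 calls) and 0.181 in tail (0.177 to 0.186, 24183 calls), and all 11 positions were lower by at least 0.3. A further solo IAPLTR2 copy at chr4:89875828-89876305 had 0.873 in sperm (9203 calls) and 0.250 in tail (8335 calls), and all 11 of its positions were lower by at least 0.3 as well. At both loci the difference covered every position with 10 calls, as the plot of positions along 6 LTRs shows.

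Rab6b encodes a small GTPase of Golgi traffic that is abundant in neurons. The solo IAPLTR2 copy at chr9:103108602-103109112 lies 2675 bases from its start and spans a pair of bins. The bin with the downstream part had a level of 0.801 in sperm (0.789 to 0.813, 4486 calls) and 0.146 in tail (0.137 to 0.155, 6504 calls). The bin with the upstream part had 0.818 (0.801 to 0.834) and 0.328 (0.310 to 0.347). Within the upstream part, the first 2 positions from the 5′ end stayed high in tail, at 0.837 and 0.857, and the next 4 lay between 0.168 and 0.367.

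Snd1 encodes an RNA-binding nuclease with a Tudor domain. A full IAP with IAPLTR1 ends lies antisense in an intron of the gene. The bin with its 3′ LTR (chr6:28924175-28924530) had a level of 0.942 in sperm (0.934 to 0.95, 3570 calls) and 0.312 in tail (0.306 to 0.319, 20537 calls). The bin with its 5′ LTR (chr6:28928999-28929354) had 0.887 (0.840 to 0.923, 247 calls) and 0.509 (0.469 to 0.549, 611 calls). The bin just beyond the 3′ LTR had 1 and 0.320 over 250 and 597 calls, with only 1 position read in both libraries. Both LTRs of this element were thus lower in tail.

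Other elements differed between their LTRs. At chr15:77895206-77895560, 33446 bases from Txn2, the gene of mitochondrial thioredoxin, the 3′ LTR of an IAPLTR1 element had 0.924 in sperm and 0.249 in tail, while its 5′ LTR had 0.915 and 0.916. At chr11:55240926-55241294, 36576 bases from the amino acid transporter gene Slc36a1, the 3′ LTR had 0.988 and 0.440 and the 5′ LTR 0.844 and 0.896, although the bin that begins within that 5′ LTR (chr11_55248, named by chromosome and kilobase and looked up after its values were seen) was tail-low with 0.9 and 0.530. At chr5:64037822-64038292, 54658 bases from Pgm2, which encodes a sugar phosphate mutase, the 3′ LTR of an IAPLTR2 element had 0.897 and 0.212 and the 5′ LTR 0.809 and 0.629. Taken over whole LTRs, the element near Txn2 was lower in tail in the 3′ LTR alone and the one near Pgm2 in both, while both ends of the one near Slc36a1 lay in tail-low bins. By part, the 3′ LTR near Pgm2 differed by -0.689 downstream and 0.097 upstream, the latter over only 26 and 21 calls. Its 5′ LTR differed by 0.063 downstream and -0.314 upstream.

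The same was counted over all elements with at least 20 calls in both LTRs. Among the 86 elements with a 3′ LTR in a tail-low bin, the median difference was -0.142 for the 3′ LTR and 0.001 for the 5′ LTR, which the rule did not use unless it lay in a tail-low bin itself. Of these 86 5′ LTRs, 8 were lower in tail by at least 0.1, and 10 lay in a tail-low bin. Among the 49 elements with a 5′ LTR in a tail-low bin, the 5′ LTR had a median difference of -0.096 and the 3′ LTR one of -0.007, with 9 of the 3′ LTRs lower by at least 0.1 and 10 in a tail-low bin. In the 1665 elements with neither LTR in a tail-low bin the medians were 0.019 for the 3′ LTR and 0.042 for the 5′ LTR, and 19 of them had a 5′ LTR lower by at least 0.1.

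Further LTR bins with a tail level at or under 0.5 lay both within genes and far from them. Atp6v1h encodes a subunit of the proton pump of lysosomes, and a solo IAPLTR2b copy antisense in its intron (chr1:5108491-5108821) had 0.849 in sperm (0.820 to 0.876, 670 calls) and 0.245 in tail (0.221 to 0.269, 1300 calls). A solo IAPLTR2a2 copy at chr2:50800690-50801080, 348031 bases from Rnd3, had 0.921 (12990 calls) and 0.371 (3244 calls), and its 6 positions were all lower by at least 0.3. The 3′ LTR of an IAPLTR2 element at chr10:15179872-15180357, 461658 bases from Gje1, had opposite parts. Its downstream part had 0.857 in sperm and 0.287 in tail and met the rule, its upstream part, in the next bin, had 0.804 and 0.902, and the LTR as a whole had 0.826 and 0.820.

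**Figure D3:**
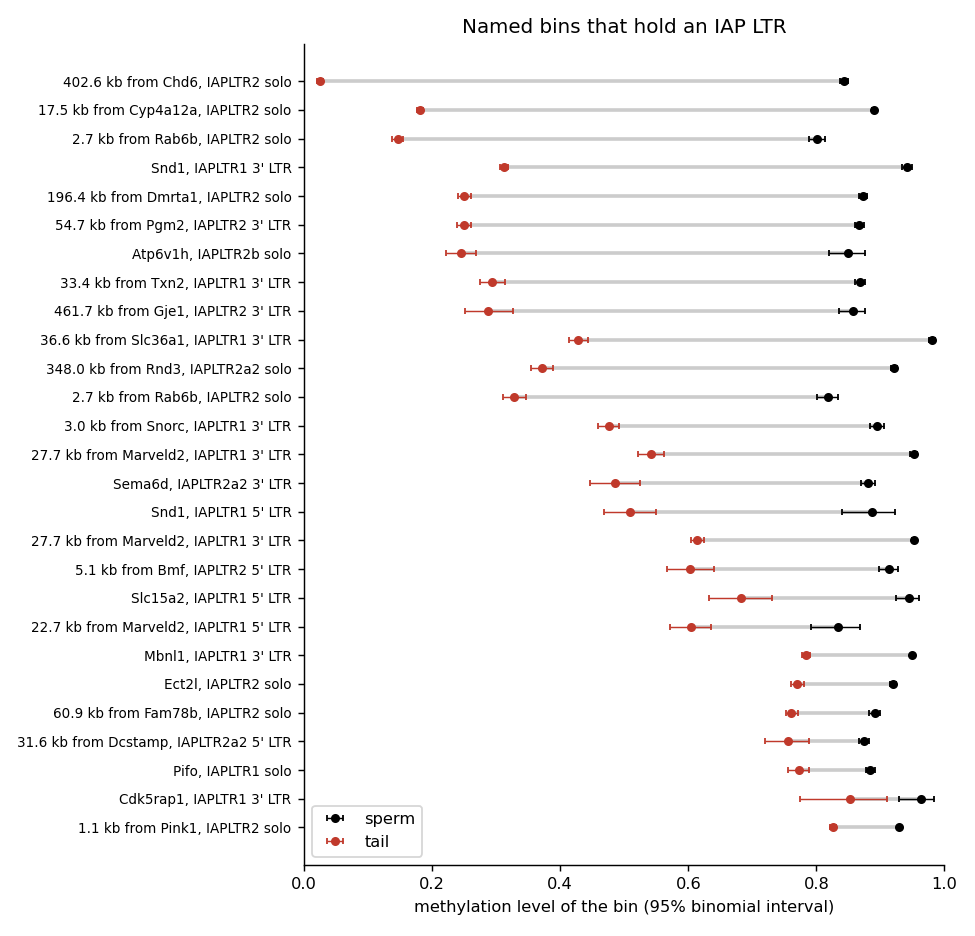
Methylation level in sperm (black) and tail (red) of the named tail-low bins that hold an IAP LTR, with exact 95% binomial intervals over calls, labelled by the gene they lie in or the distance to the nearest protein-coding gene start. Bins that share an LTR or an element are shown separately, and the tail level ranged from 0.024 to 0.852.

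Genes that the literature names beside IAPs of variable methylation in C57BL/6J mice were looked up in a list of 20 symbols recalled from memory. Of these, 19 were found in the annotation, 18 had a kept bin with an LTR within 100 kb, and 14 had such a bin that was tail-low. Of the 46 LTR bins near listed genes, 18 (39.1%) were tail-low, beside 4.74% of all LTR bins. The list was put together with earlier results of these data known, and at least Snorc had been seen in them, so that the count is no independent evidence.

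The LTR bins near listed genes spanned a wide range. Beside Rab6b and Snd1, the lowest was the 3′ LTR of an IAPLTR1 element 3012 bases from Snorc, the gene of a cartilage proteoglycan, with 0.895 in sperm (3378 calls) and 0.476 in tail (3638 calls). An IAPLTR1 element near Marveld2, which encodes the tight junction protein tricellulin, had, per LTR, 0.955 and 0.616 in its 3′ LTR and 0.809 and 0.662 in its 5′ LTR. In Sema6d, a semaphorin gene, a 3′ LTR bin of IAPLTR2a2 had 0.881 and 0.485. The downstream part of that LTR had 0.945 and 0.402, and its upstream part 0.487 and 0.506 over 480 and 271 calls. Near Bmf, a gene of a proapoptotic BCL2 family protein, a 5′ LTR bin had 0.914 and 0.603, although the whole LTR had 0.95 and 0.875, and in Slc15a2, a peptide transporter gene, a 5′ LTR bin had 0.944 and 0.683.

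Smaller differences of the bin level, from -0.167 to -0.103, were found near other listed genes, although parts of some of these LTRs differed more. The bin in Mbnl1, which encodes a splicing regulator, had 0.95 in sperm and 0.784 in tail over 39025 and 14899 calls. The bin 1079 bases from Pink1, a mitochondrial kinase gene, had 0.929 and 0.826 over 75622 and 28764 calls, while the adjacent bin without an LTR had 0.979 and 0.353 over 1085 and 116 calls. The bins in Ect2l, Pifo and Cdk5rap1, the one near Fam78b and the one near Rims2, which lay 31634 bases from Dcstamp, had tail levels between 0.756 and 0.852, and the Cdk5rap1 bin had only 218 calls in sperm and 115 in tail. By part, the LTR near Pink1 had 0.948 and 0.600 upstream, over 2767 and 2723 calls, and 0.930 and 0.860 downstream, over 72242 and 24899. The LTR in Pifo had 0.958 and 0.586 upstream, over 408 and 865 calls, and 0.879 and 0.866 downstream, over 7276 and 1711. No LTR bin near Eps8l1, Nfkbil1, Gm13849 or 2610001J05Rik met the rule, Tfec had no kept LTR bin within 100 kb, and the symbol Diap3 was not found.

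The position of the difference within the LTR was followed through the strand of the calls. Calls on the minus strand of an LTR come from its upstream part (median 39 bases from the 5′ end in LTRs of tail-low bins) and calls on the plus strand from its downstream part (median 363 bases), and each part is amplified together with the sequence beside it. Of 255 LTRs in tail-low bins with at least 20 calls per part and library, 34 were lower by at least 0.1 in both parts, 76 in the downstream part alone and 96 in the upstream part alone. A difference in both parts, as at the copies near Chd6, Cyp4a12a, Rab6b and Dmrta1, was found in 34 of the 255. Among 4702 other LTRs of kept bins, 7 were lower in both parts, 93 in the downstream part alone and 275 in the upstream part alone.

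The part that was lower differed by LTR type. Among 56 3′ LTRs, 35 were lower in the downstream part alone, 5 in the upstream part alone and 7 in both, and the median differences were -0.140 downstream and 0.001 upstream. Among 51 5′ LTRs, 23 were lower in the upstream part alone, 8 in the downstream part alone and 4 in both, with medians of -0.002 downstream and -0.105 upstream. Among other LTRs the upstream part alone was the more frequent in both types, with 73 against 26 of 1538 3′ LTRs and 79 against 18 of 1816 5′ LTRs. The order in 5′ LTRs was thus that of the background, and the order in 3′ LTRs was the opposite of it, in LTRs whose levels the rule had selected on. Bin levels weight each call, so a part with more calls counts for more in the level of its bin. The 3′ LTR near Txn2, which lies within 1 bin, had 5698 sperm calls downstream and 38 upstream. The one near Pgm2 had 9349 and 26 and the one far from Gje1 1220 and 1725, but these LTRs cross a bin border. Calls by part were not summed over all LTRs of a type. The order by type was not tested apart from the selection by the rule. Among 146 solo LTRs, which have flanks on either side, 68 were lower in the upstream part alone, 32 in the downstream part alone and 23 in both. Among the other LTRs of kept bins, medians of both parts lay between -0.009 and 0.070 in each type.

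**Figure D4:**
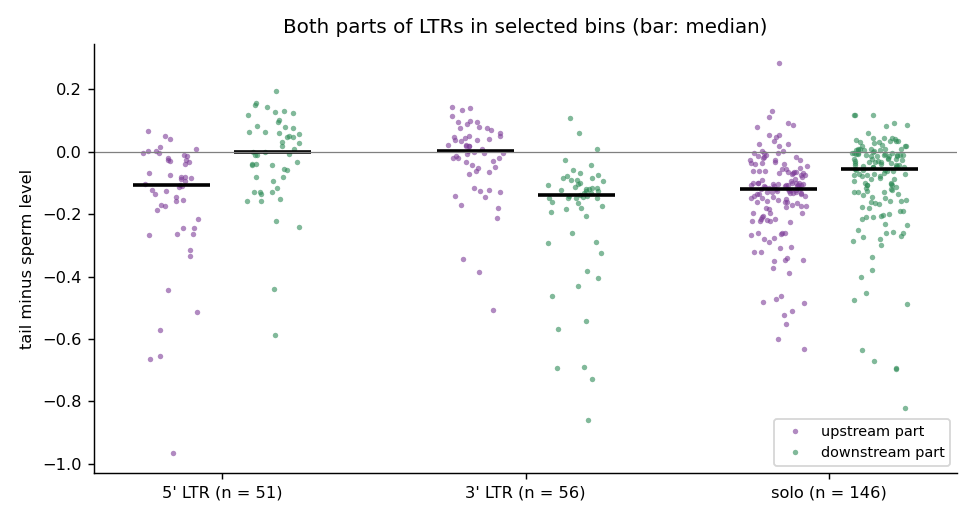
Difference in methylation level, tail minus sperm, of the upstream part (purple) and the downstream part (green) of each LTR in a tail-low bin with at least 20 calls per part and library, by LTR type, with bars at the medians. The downstream part is lower in 3′ LTRs (median -0.140) and the upstream part in 5′ LTRs (median -0.105), in LTRs whose levels the rule had selected on.

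**Figure D5:**
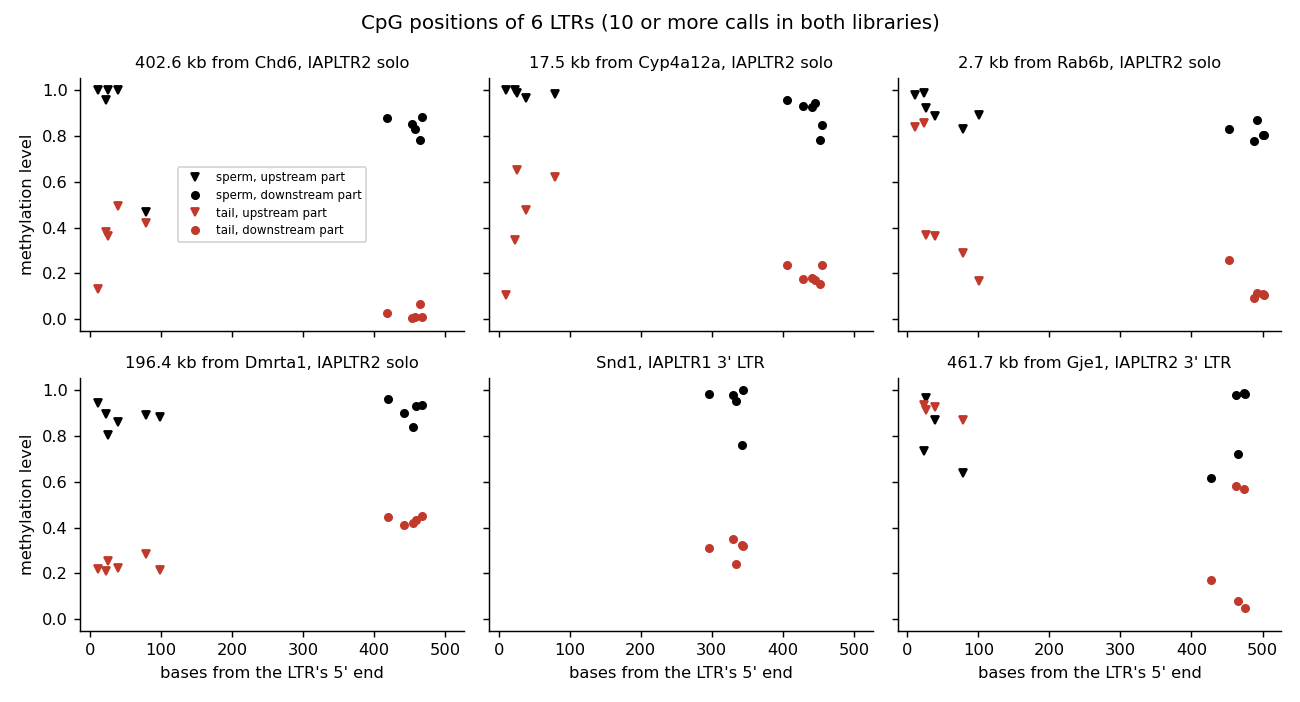
Methylation level of single CpG positions in sperm (black) and tail (red) along 6 LTRs, against the distance from the 5′ end of the LTR in bases, with triangles for the upstream part and circles for the downstream part. All positions of the copies near Chd6, Cyp4a12a, Rab6b and Dmrta1 are lower in tail, the Snd1 copy was read in its downstream part, and the copy far from Gje1 is lower in its downstream part alone.

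The LTR and the sequence beside it were also compared. In 229 tail-low LTR bins both the LTR and the rest of the bin had at least 20 calls in each library. The LTR part was lower by at least 0.1 in 180, the rest of the bin in 158, and both in 111. In 47 bins the outside alone was lower by that margin. Among 5726 other LTR bins the LTR part was lower in 63, the rest of the bin in 948, both in 7 and the outside alone in 941. Bins 1 kb from tail-low LTR bins that had at least 20 calls per library and did not meet the rule themselves had a median difference of 0.001 (n = 184), beside 0.025 next to other LTR bins with a sperm level above 0.8 (n = 3278).

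In sequence, LTRs lower by at least 0.3 were compared with other LTRs of the same subfamily in kept bins. The 19 such IAPLTR1 copies shared a median of 56.1% of their 8-letter words with each other and 27.1% with the 1226 IAPLTR1 copies outside tail-low bins, which shared 66.1% among themselves. The 10 such IAPLTR2 copies shared 48.5% with each other and 26.2% with the 1103 others, which shared 30.7%. These IAPLTR2 copies held a median of 30 CpGs and the others 23, whereas IAPLTR1 had 18 and 20 and IAPLTR2a2 16 and 15. In IAPLTR2a2 the shared words were closer, at 54.8% among 9 copies and 50.6% with the others, and 3 such IAPLTR1a copies shared less with each other (21.6%) than with the others (33.2%).

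Short motifs were searched on both strands of the LTRs. GGGCGG, the letters of an Sp1 site, was in 15 of 19 (78.9%) IAPLTR1 copies lower by at least 0.3, in 71.7% of all 92 IAPLTR1 copies in tail-low bins and in 54.2% of the others. TGACGTC, the letters of a CRE, showed the opposite order, with 31.6%, 53.3% and 80.8%. In IAPLTR2, GGGCGG was in all 10 copies lower by at least 0.3 and in 92.5% of the others, and GGGTGG in 1 of 10 (10%) and in 46.4%. CCATNTT, the letters of a YY1 site, was in 97.2% or more of every subfamily and set. GGGAGGG (Maz), CCGGAAG (ETS), GCATGCG (Nrf1) and AGGGGGC (CTCF) were in at most 1 copy of each subfamily among those lower by at least 0.3. A match describes letters and no binding was measured.

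For gene context, tail-low bins were set beside the other bins with a sperm level above 0.8. The median distance of tail-low LTR bins to a protein-coding gene start was 63037 bases, against 90014 in 6362 other LTR bins above that level, and 5.93% against 3.03% lay within 5 kb of a start. Of those overlapping a gene, 77.9% were antisense to it, beside 75% of the others. Over all 1144 tail-low bins, the nearest gene had a Zfp symbol (zinc-finger genes) in 1.14%, an Olfr symbol (odorant receptors) in 0.962%, a Vmn symbol (vomeronasal receptors) in 0.175% and a Gm symbol (predicted genes) in 3.15%, beside 1.69%, 2.18%, 1.54% and 4.98% of all kept bins. These sets differ in kind of bin, with 52.6% and 13.4% distant bins. Among tail-low LTR bins the shares were 1.98%, 1.23%, 0.247% and 3.95%, beside 1.63%, 2.04%, 1.27% and 4.73% of the other LTR bins above 0.8. The Zfp share thus went the other way there. The share of bins that met the rule was the highest on chromosome 11 (16.6%) and chromosome 19 (13.8%) and the lowest on chromosome 16 (8.37%), beside 10.6% of all kept bins. These shares pool LTR, adjacent and distant bins, which were not split by chromosome.

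The 602 distant tail-low bins had a median level of 0.95 in sperm and 0.710 in tail, and 210 were lower by at least 0.3. The other 454 distant bins with a sperm level above 0.8 were much alike in position. An exon of a protein-coding gene overlapped 21.3% of the tail-low bins and introns alone 40.4%, beside 22.5% and 40.1% of these others, and a gene start lay within 5 kb of 10.5% and 11%. The median number of CpG sites was 11 in tail-low bins and 13 in the others, against 22 over all kept bins. Bins 1 kb from distant tail-low bins, with at least 20 calls per library and not meeting the rule, had 0.949 in sperm and 0.841 in tail (median difference -0.073, n = 64). Bins 1 kb from the other distant bins above 0.8 had 0.938 and 0.884 (median difference -0.028, n = 76).

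Ndrg1, a gene induced by stress and differentiation, had the largest difference among deeply read distant bins. In its gene body, at chr15:66966000-66966999, the level was 0.934 in sperm (1158 calls) and 0.149 in tail (2399 calls), and in the next bin 0.908 and 0.249, but each bin had only 1 position read in both libraries. A bin over an exon of Fgf2, the gene of basic fibroblast growth factor (chr3:37380000-37380999), had 5 shared positions. Its level was 0.923 in sperm (0.907 to 0.938, 1227 calls) and 0.170 in tail (0.146 to 0.196, 888 calls), and each of the 5 positions was lower by at least 0.576. The adjacent bins at chr3:31189000-31189999 and chr16:65176000-65176999 had 1 and 0.195, and 0.944 and 0.202, with 2 positions and 1 position read in both libraries.

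Of 165 tail-low bins without an LTR but with at least 500 calls in both libraries, 123 had at least 3 shared positions, and 18 of these were lower by at least 0.4. This group and the loci named from it were picked after their values were seen. It included a bin 389 bases from the start of Trpv3, the gene of a warmth-gated channel of keratinocytes, with 0.914 in sperm (1943 calls) and 0.373 in tail (2065 calls). Bins in introns of Osbp2 (0.995 and 0.427), Matn2 (0.951 and 0.360), Celf2 (0.874 and 0.388) and Nacc2 (0.992 and 0.563) were of the same kind. A bin 5530 bases from H19 had 0.928 and 0.413 over 857 and 1203 calls, and a bin over an exon of Rasgrf1 had 0.920 and 0.485 over 2599 and 1675 calls. H19 and Rasgrf1 are known as imprinted genes, and calls could not be assigned to parental alleles here. Whether either bin lies in a region that controls imprinting was not examined. The protein-coding gene start nearest to the Rasgrf1 bin was that of Ctsh, at 32153 bases, so the start of Rasgrf1 lay farther away. Tail levels between 0.3 and 0.7 were found in 53 of the 123 bins.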

How the data were processed

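TEPBAT libraries of sperm and tail DNA from 1 mouse were analysed. Per the labels and the study's methods, the authors trimmed the read pairs, mapped them to mm10 with Bismark (version not given in the sources used here), kept unique pairs and deposited, per CpG position and strand, a percent methylation with counts of methylated and unmethylated calls. The deposited percent was not used further.

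Counts were summed in 1-kb bins. Levels carry exact Clopper-Pearson intervals at 95%. LTR copies came from blastn 2.17.0 with 1005 LTR sequences at positions from a shortened copy of the study's LTR list (at least 250 bases and 80% of the query length). Of 873 LTRs listed on chromosome 1, 870 were found by other queries, 97.1% with the same subfamily. An LTR bin holds at least 20 LTR bases. LTR type was set by internal IAP sequence within 100 bases. Paired LTRs lay 3 to 9 kb apart. Genes are from GENCODE M21. Calculations used Python 3.11.15, numpy 2.4.6, pandas 2.3.3 and scipy 1.17.1, and the rule was tested on simulated data.

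Members and lists were chosen with earlier results of these data known. Named bins were the 12 largest differences with 1000 calls, up to 20 with a tail level at or under 0.5 and 500 calls, 5 without an LTR, those near listed genes and those next to the limits. The 35 bins on chromosome 18 were counted and not named. Alternatives were call minimums of 50 and 500, a difference of 0.2, a sperm level above 0.9, other ways to average positions, shifted bins, an LTR search at 50% of query length and internal sequence within 500 bases. The limit of 3 shared positions was added after seeing the data.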

Additional observations from a re-analysis of the deposited data

Results flagged for a closer look

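The sex chromosomes were outside the rule, and some of their bins would have met it, at a lower share than the 10.6% on chromosomes 1 to 19. That 10.6% combined 4.74% of LTR bins, 16.8% of adjacent bins and 41.7% of distant bins, whereas bins on X and Y were not split by kind. On chromosome X, 43 of 663 bins with at least 100 calls in both libraries met the rule (6.49%, exact 95% interval 4.73 to 8.64), with a median difference of -0.148 and a lowest tail level of 0.249, while 173 (26.1%) met the mirrored rule. On chromosome Y, 2 of 153 bins met it (1.31%, 0.159 to 4.64) and 68 (44.4%) met the mirrored rule, beside 16.3% on chromosomes 1 to 19. They were singled out because their values come from data that no comparison above used.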

How the results depend on the processing

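The number of tail-low bins was 1730 with a minimum of 50 calls, 448 with 500 calls and 543 with a minimum difference of 0.2. It stayed between 867 and 1172 under the other settings, although the unweighted mean over positions took 867 bins of which only 618 were among the 1144. The median difference was -0.208 with 50 calls, -0.160 with 500 calls, -0.320 with the difference of 0.2, -0.172 with the unweighted mean and -0.178 with 3 or more shared positions, beside -0.189. The percent with an LTR was 26.6 with 50 calls, 61.8 with 500 calls, 21.7 with the difference of 0.2, 51.2 with the unweighted mean and 43.5 with 3 or more shared positions, beside 35.4. The percent with a solo LTR alone was 13.5, 30.8, 11, 26.6 and 21.8 in the same order, beside 17.9. The other settings moved none of the medians or percentages beyond the interval of the main value. That interval treats the selected bins as independent draws, and all settings reuse the same calls, so staying within it is no independent check. The causes were not tested. No paired analysis was possible because each tissue has 1 library. Depth limits the distant bins most, with medians of 278 calls in sperm and 264 in tail.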
